A study of Rattus norvegicus with 18 samples.

Results

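Calcitriol was set against calcidiol in glucose-stimulated INS1E cells, a clonal insulin-secreting line from a rat insulinoma, by comparing the 3 arrays titled as calcitriol with glucose with the 3 titled as calcidiol with glucose. These are 6 of the 18 arrays of a study with 6 groups of 3. The samples were chosen by their titles alone, and no measured value took part in the choice. All 18 samples were rat INS1E cells cultured at 11 mM glucose, kept for 72 h in medium with 10 nM calcitriol, 10 nM calcidiol or neither, and then held for 60 min in a buffer free of glucose. The compared groups next received 22 mM glucose for 60 min. Another stimulated group had glucose without vitamin D, and 3 further groups had the same pretreatments without the glucose step. Total RNA was hybridised to Affymetrix Rat Gene 1.0 ST arrays, 1 sample per array, and all values below are log2 signals as normalised and deposited by the authors, so that a difference of 1 is a doubling. Nothing in the labels states that separate cultures were used within a group, so that the p-values cover the scatter among these samples, possibly of technical origin.

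Calcidiol is the circulating storage form of vitamin D and calcitriol is its hormonal form, which has an additional hydroxyl group at carbon 1. The enzyme Cyp27b1 adds that group, Cyp24a1 breaks both forms down, and calcitriol is the much stronger ligand of the vitamin D receptor Vdr. The receptor pairs with a retinoid X receptor, binds repeated hexamers in DNA and raises the transcription of its targets, many of which handle calcium. In beta cells glucose metabolism closes ATP-sensitive potassium channels, calcium enters, insulin is released, and immediate early genes and Txnip, a gene that follows glucose metabolism, are induced. Neither Cyp27b1 nor Cyp24a1 was among the 13136 gene symbols with a value here, so that neither was analysed.

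The arrays carried the markers of a beta-cell line. Of 20 listed markers 19 were in the table and all 19 lay above the filter on low signal, with Ins1 at 12.85 to 12.91 and Ins2 at 12.96 to 13.08 over the 6 compared arrays. The summed linear signal of these markers was 58300 to 58900 with calcitriol and 54900 to 59800 with calcidiol. Of 25 markers of other islet, duct, acinar, stromal, endothelial, leukocyte and liver cells, 11 were in the table and 3 lay above the filter, namely Gcg, Krt7 and Sox9. These 3 ran from 10.2 to 12.16, 9.49 to 10.88 and 7.53 to 8.78 over the 6 compared arrays. Sst, Ppy, Cela1 and Cd68 were among the markers whose mean signal lay below the filter of 6.38. Single arrays of Cd68 still exceeded that value, at 6.44, 6.72 and 6.64 with calcitriol and 6.08, 6.77 and 6.12 with calcidiol. Listed markers without a value here could not be judged. The summed signal of the 11 was 4240 to 5260 with calcitriol and 3870 to 6010 with calcidiol.

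The array labelled calcidiol with glucose 3 stood apart from the other 2 of its group, and this bears on the results below. The calcitriol with glucose array numbered 3 did so in few genes. Txnip was 12.33, 12.22 and 12.28 on the calcitriol arrays 1, 2 and 3 and 12.23, 12.18 and 10.23 on the calcidiol arrays, all labelled as stimulated with glucose. The third of these calcidiol arrays was at the level of the unstimulated controls, which were 10.48, 10.39 and 9.88. That array, labelled calcidiol with glucose 3, had 53 of 9852 genes more than 1 above and 73 more than 1 below the mean of the arrays labelled 1 and 2. The corresponding totals in either direction were 60 and 32 for the calcidiol arrays 1 and 2, and 6, 0 and 9 for the calcitriol arrays 1, 2 and 3. Each array was set against the mean of the other 2 of its group. For the calcidiol arrays 1 and 2 that mean includes the array labelled calcidiol with glucose 3, which adds to their totals. Of the 53 high genes, 41 (77.4%) were higher on both calcitriol with glucose arrays numbered 1 and 2 than on both glucose arrays with those numbers, against 8.64% of all genes. Of the 73 low genes, 59 (80.8%) were higher on both glucose arrays numbered 1 and 2 than on both controls with those numbers, against 17.3% of all genes. The array labelled calcidiol with glucose 3 was therefore high mostly in genes that were higher with calcitriol on other arrays and low mostly in genes that were higher with glucose on other arrays. Of the 53, 44 (83%) were also more than 1 higher on the array labelled calcidiol 3 without glucose than on its arrays 1 and 2, against 0.568% of all genes. Whether these samples carry the right labels was not tested. The labels were kept as given, and results are given with all 18 arrays and, where these differ, with the 12 arrays numbered 1 and 2, a selection made with these values known.

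Over all 18 arrays no gene passed for calcitriol against calcidiol with glucose. One limma model of the 6 groups gave every comparison, with Benjamini-Hochberg adjustment over all 9852 genes above the filter on low signal and a threshold of 0.05. Limma called 0 genes (0%), with a smallest adjusted p of 0.999. At an unadjusted p under 0.05 there were 198 higher (2.01%) and 111 lower genes (1.13%), which are 309 together. All 3 calcitriol arrays lay above all 3 calcidiol arrays for 248 genes (2.52%) and below them for 214 (2.17%). Differences ran from -0.81 to 0.96, and 19 genes differed by more than 0.5. The 95% interval of the difference lay within 0.5 of 0 in both directions for 9213 genes (93.5%) and within 1 for 9776 (99.2%). A p that misses the threshold does not show that the forms act alike, and these intervals give the sizes that the arrays leave room for. A limma fit blocked on the replicate number also called 0 genes, and there the smallest adjusted p was 0.59 and 669 genes had an unadjusted p under 0.05.

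Among the 10 higher genes with the smallest p, the differences were 0.23 to 0.37 and the 3 arrays of each form did not overlap. Picking by p on these arrays favours genes without overlap, of which 248 (2.52%) were higher among all genes. Daxx, a histone chaperone gene, was 8.02, 7.98 and 8.0 with calcitriol and 7.82, 7.73 and 7.77 with calcidiol, a difference of 0.23 (SE 0.05, 95% interval 0.11 to 0.34, adjusted p = 0.999 by limma). Arrb2, which encodes beta-arrestin 2, a protein that uncouples G-protein-coupled receptors, was 8.52, 8.74 and 8.59 against 8.03, 8.42 and 8.29, a difference of 0.37 (SE 0.10). Every calcitriol value of both genes was above every calcidiol value. Stx4 encodes a plasma membrane syntaxin used in the fusion of insulin granules. It was 8.46, 8.21 and 8.37 against 7.91, 8.13 and 8.10, a difference of 0.30 (95% interval 0.11 to 0.49), with the second arrays of the 2 groups close together. Chkb, the choline kinase gene, was 8.68, 8.67 and 8.80 against 8.38, 8.49 and 8.49. Ppp2r5b, a regulatory subunit of protein phosphatase 2A, was 8.85, 8.74 and 8.98 against 8.52, 8.49 and 8.72. Slc25a38, the mitochondrial glycine carrier used in haem synthesis, was 7.07, 7.15 and 7.04 against 6.69, 6.81 and 6.85. These 3 genes were separated by 0.26 to 0.30 on average. The other 4 were the kinase gene Rps6ka4 (0.23), the sterol homeostasis gene Arv1 (0.26), the homeobox gene Duxbl1 (0.34) and the kinase adaptor gene Tbkbp1 (0.24).

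The lower genes with the smallest p included 3 enzymes of mitochondrial fatty acid oxidation. Cpt1a, the rate-limiting carnitine palmitoyltransferase that admits long-chain fatty acids to mitochondria, was 8.62, 8.61 and 8.55 with calcitriol and 8.84, 8.94 and 8.82 with calcidiol, a difference of -0.27 (SE 0.09, 95% interval -0.46 to -0.09, adjusted p = 0.999 by limma). Acadl, the long-chain acyl-CoA dehydrogenase, was 7.61, 7.60 and 7.61 against 8.0, 7.90 and 7.70, a difference of -0.26 (SE 0.08). Acaa2, the thiolase that ends each turn of the cycle, was 9.50, 9.52 and 9.46 against 9.67, 9.78 and 10.08, a difference of -0.35 (SE 0.12). For each of the 3 genes every calcitriol array lay below every calcidiol array, as for 2.17% of all genes, and picking by p favours this. None passed the adjusted threshold. The gaps of Acaa2 on arrays 1, 2 and 3 were -0.17, -0.26 and -0.62. The 3 genes were noticed together after their values were seen, and belong to no list used here. Values of other genes of the pathway are not given here. Hsph1, a chaperone gene of the cytosol, was 7.82, 7.61 and 7.76 against 7.79, 8.13 and 8.30, so that its groups overlapped. The other 6 were Hs6st2, a heparan sulphate sulphotransferase gene (-0.31), Rapgef2, an exchange factor for Rap proteins (-0.26), Rpo1-3, Pogk, the helicase gene Dhx36 and the lipid kinase gene Pik3c2a (each -0.22). The groups of these 6 did not overlap.

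**Figure D1:**
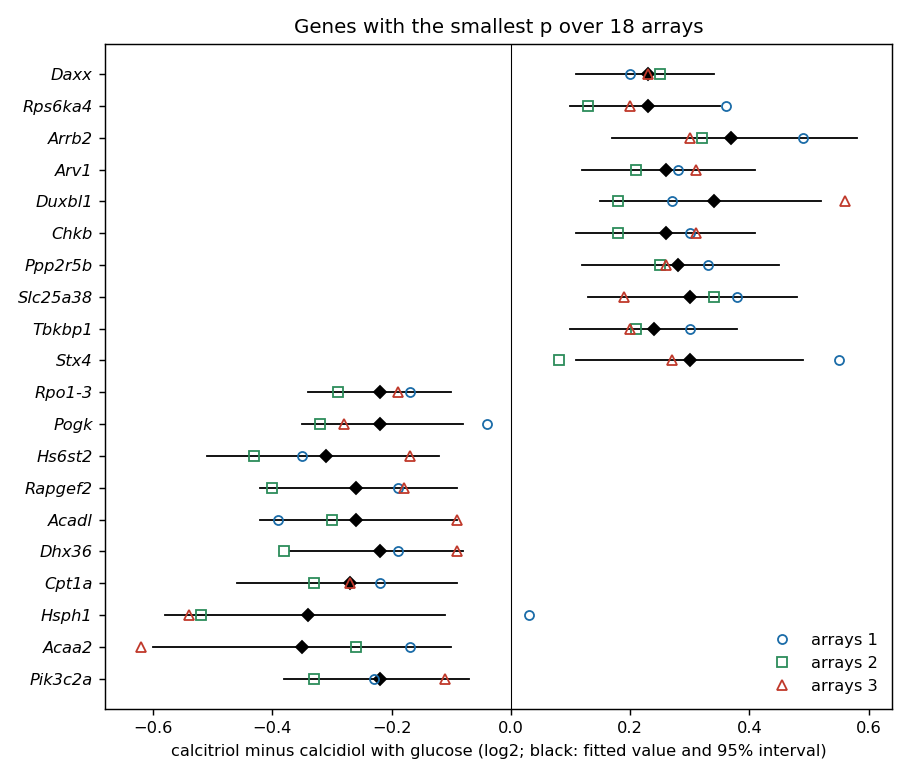
Calcitriol minus calcidiol with glucose, on a log2 scale, for the 10 higher and 10 lower genes with the smallest p over 18 arrays. Black diamonds and lines are fitted values and 95% intervals, open symbols are the differences between arrays of the same number, and Hsph1 is the 1 gene of the 20 whose groups overlap.

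Ranked by the size of the difference among genes without overlap, the higher end added Ppp1r3d and Arc. Ppp1r3d, which targets protein phosphatase 1 to glycogen, was 9.01, 8.90 and 8.78 with calcitriol and 8.57, 8.76 and 8.16 with calcidiol, a difference of 0.40 (95% interval 0.04 to 0.76). Arc, an immediate early gene of the cytoskeleton, was 6.74, 6.53 and 6.41 against 6.05, 6.34 and 6.15, a difference of 0.38 (95% interval -0.01 to 0.77). The lower end added Serping1, the complement C1 inhibitor gene, at 7.07, 6.89 and 6.98 against 7.14, 7.12 and 7.50, and Fundc1, a mitophagy receptor gene, at 7.52, 6.93 and 7.45 against 7.56, 7.58 and 7.57. The last pair of groups differed by -0.27 for each gene, and Fundc1 owed its mean to the second calcitriol array.

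On the 12 arrays numbered 1 and 2, Casr and Adam23 were higher with calcitriol, and no gene passed as lower. In this fit, in which 0.0203% of genes were called higher and 0% lower, the 2 called genes were Casr and Adam23. Without the filter on low signal, an alternative added after the values were seen, the called genes were Ucn3, S100g, Casr and Adam23, which are 4 of 13136 (0.0305%). Both calcitriol arrays lay above both calcidiol arrays for 12.2% of the genes above the filter and below them for 12.5%. The 4 arrays of the compared groups alone gave 0 calls, with a smallest adjusted p of 0.113 by limma and 188 genes at an unadjusted p under 0.05. The fit that left out the third arrays of the compared groups alone kept the third arrays of the other 4 groups and also gave 0, with 419 genes at an unadjusted p under 0.05. The 2 calls thus rest on the spread estimated from 12 arrays.

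The promoters of Casr and Ucn3, which are 2 of the 4 called genes, are printed because the vitamin D receptor is known to act through such hexamers. The sequences are the 250 bases before the start of transcription in RefSeq's rat assembly GRCr8, each on its gene's strand, with hexamers AGGTCA or GGGTCA or AGTTCA or GGTTCA or GGGTGA on either strand in capitals. The Casr window is chr11:77740364-77740613 on the plus strand, and the Ucn3 window is chr17:71219406-71219655 on the plus strand.
Casr: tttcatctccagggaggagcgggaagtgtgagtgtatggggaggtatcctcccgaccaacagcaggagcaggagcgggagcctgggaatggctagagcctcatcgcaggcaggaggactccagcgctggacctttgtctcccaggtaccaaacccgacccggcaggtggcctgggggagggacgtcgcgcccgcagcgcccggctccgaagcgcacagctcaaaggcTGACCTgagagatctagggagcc
Ucn3: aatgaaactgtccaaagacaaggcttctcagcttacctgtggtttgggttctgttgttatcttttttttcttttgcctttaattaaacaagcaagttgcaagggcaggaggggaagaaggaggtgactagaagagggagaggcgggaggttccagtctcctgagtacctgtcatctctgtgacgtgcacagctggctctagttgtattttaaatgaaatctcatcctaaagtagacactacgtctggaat
The Casr window held 1 hexamer, on the opposite strand with its first printed base at position -23 from the start, and the Ucn3 window held none. Of 33469 such windows, 46.4% held a hexamer. A direct repeat of 2 hexamers spaced by 3 bases is the arrangement the receptor is known to bind. With 50 bases after the start included throughout, it was found in 0 of the 36 windows matched among 52 named genes. Among all windows the share with such a repeat was 0.15%. These are matches of letters in short windows, and known sites of the receptor often lie far from the start.

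Casr encodes the calcium-sensing receptor, a G-protein-coupled receptor of the parathyroid, kidney and islet. It was 7.18, 7.36 and 6.45 with calcitriol, 6.32, 6.48 and 9.55 with calcidiol, and 6.31, 6.20 and 6.33 with glucose alone. The first and second calcitriol arrays were high, the first and second calcidiol arrays were near those without vitamin D, and the array labelled calcidiol with glucose 3 was the highest of all. On arrays 1 and 2 the difference was 0.87 (SE 0.09, 95% interval 0.67 to 1.08, adjusted p = 0.0178 by limma, and 0.0123 with no filter). The arrays without calcitriol or calcidiol were near the filter of 6.38, which the gene passed through its high arrays, so that no fold is given. Over 18 arrays it was -0.45 (SE 0.79, 95% interval -2.14 to 1.23, adjusted p = 0.999). The sign therefore turned with the third arrays.

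Adam23 encodes a membrane protein of the disintegrin family that acts in adhesion between neurons and lacks protease activity. It was 8.06, 7.82 and 6.74 with calcitriol, 6.81, 6.93 and 8.87 with calcidiol, and 6.80, 6.74 and 6.48 with glucose alone. Its arrays were ordered as for Casr, with the third calcitriol array at the level without vitamin D. The difference on arrays 1 and 2 was 1.07 (SE 0.14, 95% interval 0.77 to 1.38, adjusted p = 0.0487 by limma), or 2.11-fold (1.71 to 2.59), and over 18 arrays the difference was 0.01 (-1.22 to 1.23).

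S100g encodes calbindin-D9k, a calcium-binding protein of the intestine and kidney and a classical target of calcitriol. It was 5.67, 5.69 and 4.18 with calcitriol, 4.57, 4.39 and 9.55 with calcidiol, and 4.35, 4.15 and 4.37 with glucose alone. Signals near 4 were among the lowest in the table, and the probe set lay below the filter despite the 2 calcidiol arrays numbered 3 at 9.55 and 9.61, with and without glucose. On arrays 1 and 2 without the filter the difference was 1.20 (SE 0.10, 95% interval 0.98 to 1.42, adjusted p = 0.00151 by limma), and over 18 arrays -0.99 (-3.68 to 1.70).

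Ucn3 encodes urocortin 3, a peptide released with insulin that marks mature beta cells and acts on neighbouring somatostatin cells. It was 6.99, 6.93 and 5.28 with calcitriol, 5.29, 5.38 and 8.62 with calcidiol, and 5.33, 5.09 and 5.16 with glucose alone. The first and second calcitriol arrays stood more than 1 above every other array named here except that labelled calcidiol with glucose 3. On arrays 1 and 2 without the filter the difference was 1.62 (SE 0.13, 95% interval 1.34 to 1.91, adjusted p = 0.00151 by limma), and over 18 arrays it was -0.03 (-1.94 to 1.88). The files used here hold no detection calls, and the calcidiol arrays 1 and 2 of S100g and Ucn3 lay below the filter, so that the sizes of both differences depend on the background signal. S100g and Ucn3 were named after their values were seen, because they made up a count of 4.

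**Figure D2:**
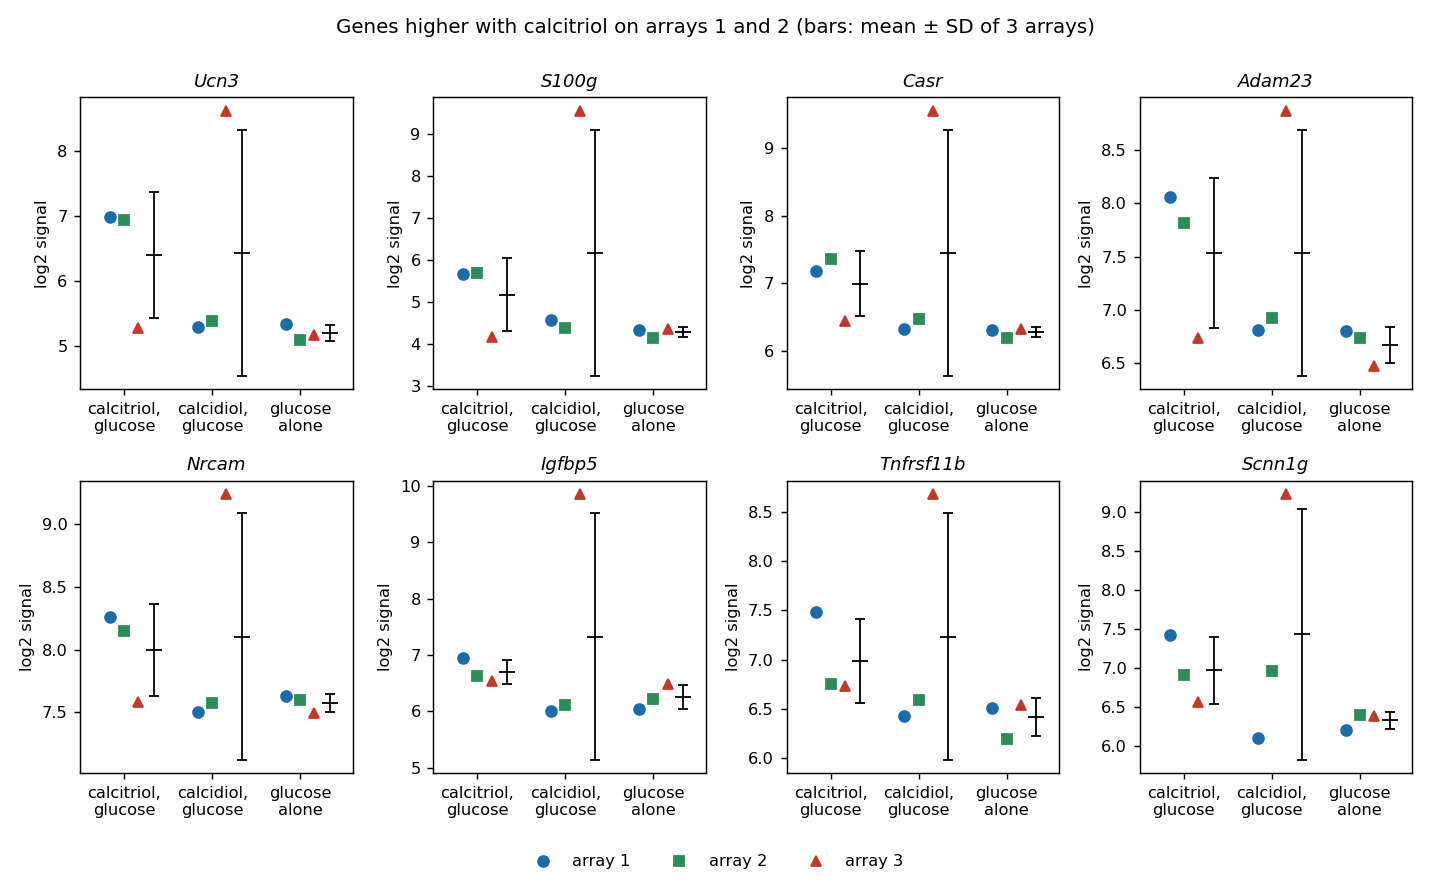
Log2 signal of 8 genes on the arrays with calcitriol and glucose, with calcidiol and glucose, and with glucose alone; symbols give the array number, bars the mean and SD of 3 arrays, and the vertical scales differ. The red triangle of the array labelled calcidiol with glucose 3 is the highest point in every panel, and for Ucn3, S100g, Casr, Adam23 and Nrcam the third calcitriol array lies near the arrays without vitamin D. Casr, Igfbp5 and Scnn1g were among the genes picked for a high value on the array labelled calcidiol with glucose 3.

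The remaining higher genes of arrays 1 and 2 did not pass. Nrcam, a neuronal adhesion gene of the immunoglobulin family, was 8.26, 8.15 and 7.58 with calcitriol and 7.50, 7.57 and 9.24 with calcidiol, a difference on arrays 1 and 2 of 0.67 (SE 0.10, adjusted p = 0.139 by limma). Trim9, a ubiquitin ligase gene of neurons, was 7.02, 6.87 and 6.35 against 6.26, 6.44 and 7.94, a difference of 0.59. Cacnb1, a subunit of voltage-gated calcium channels, was 8.16, 8.22 and 7.86 against 7.37, 7.80 and 9.11, a difference of 0.60. In these 3 genes, too, the array labelled calcidiol with glucose 3 was the highest of the 6. Nradd, a death-domain gene related to neurotrophin receptors, did not share that order, at 7.48, 7.44 and 7.27 against 7.07, 7.12 and 7.13, a difference of 0.36 on arrays 1 and 2 and of 0.29 over 18 arrays (95% interval 0.06 to 0.51). Lppr1, a lipid phosphatase-related gene of neurons, had the largest difference on arrays 1 and 2 among genes above the filter, at 1.22 (adjusted p = 0.92 by limma), from 9.96, 8.87 and 7.92 against 8.54, 7.86 and 10.68. Gab1, an adaptor of receptor tyrosine kinases, was 7.75, 7.55 and 7.36 against 6.83, 7.35 and 9.35. Lppr1 and Gab1 were picked as among the highest on the array labelled calcidiol with glucose 3 against calcidiol arrays 1 and 2. Their high value on that array thus follows from the choice. Mycn, a transcription factor gene of growth, and Haghl, named for its likeness to glyoxalase II, differed by 0.63 and 0.36 on arrays 1 and 2.

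The lower genes named for arrays 1 and 2 did not pass either, and each crossed over on the third arrays. Fyb, an adaptor gene best known from T cells, was 8.54, 8.72 and 8.45 with calcitriol and 9.19, 9.29 and 7.86 with calcidiol, a difference on arrays 1 and 2 of -0.61 (SE 0.09, adjusted p = 0.0992 by limma). Oxtr, the oxytocin receptor gene, was 7.54, 7.51 and 7.46 against 7.92, 8.06 and 7.03, a difference of -0.47. The calcitriol arrays of both genes were within 0.3 of each other, and the spread lay in the calcidiol arrays. Fam46a (-0.55), Lrrn3 (-0.46), Ugt8 (-0.43), Cxadrl1 (-0.46) and Zcchc16 (-0.40) were further genes of this kind. Against glucose alone on arrays 1 and 2, calcidiol differed by 0.42 for Fyb and calcitriol by -0.19, so that the larger of these distances was that of calcidiol. With the replicate number as a block, 3 genes were called on arrays 1 and 2. The added gene was Ppargc1a, the coactivator of mitochondrial biogenesis, named after its values were seen. It was 7.50, 7.41 and 7.12 with calcitriol and 8.35, 8.04 and 6.52 with calcidiol, and the blocked fit put the difference at -0.74 (SE 0.08; adjusted p = 0.00824 by limma with the block and 0.543 without).

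**Figure D3:**
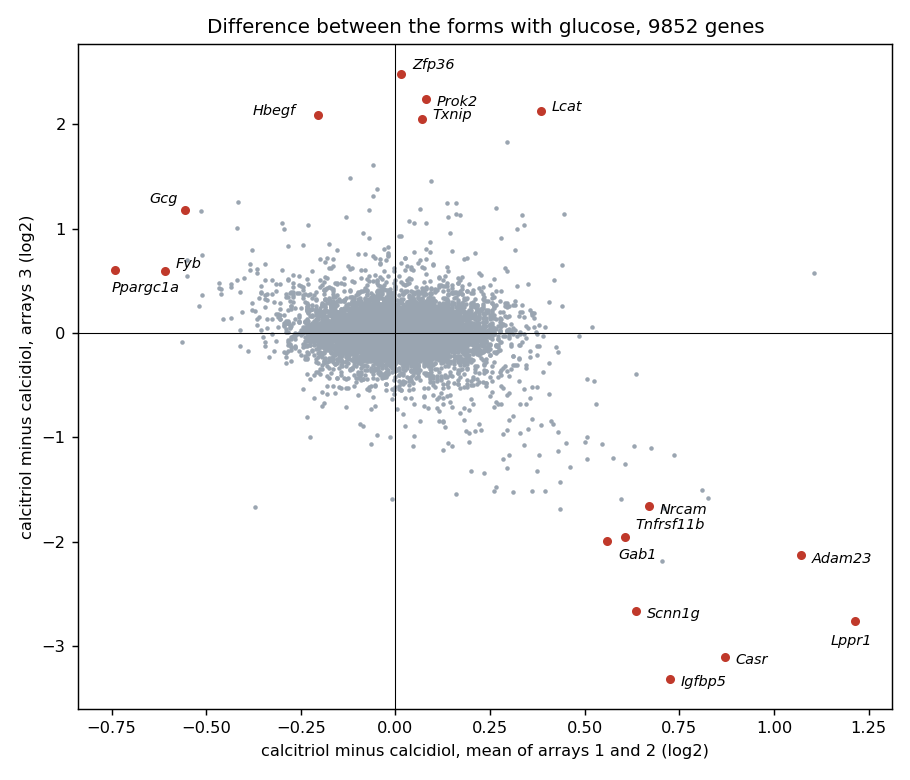
Calcitriol minus calcidiol with glucose for 9852 genes, as the mean of arrays 1 and 2 (horizontal) and on arrays 3 (vertical), both on log2 scales. Casr, Adam23, Igfbp5 and Scnn1g lie at the lower right, positive on arrays 1 and 2 and below -2 on arrays 3, while Txnip, Zfp36, Prok2, Hbegf and Lcat lie between -0.20 and 0.38 on arrays 1 and 2 and between 2.05 and 2.48 on arrays 3. All but Adam23 were among those picked as highest or lowest on the array labelled calcidiol with glucose 3 against arrays 1 and 2.

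Over all genes the differences of the 3 array numbers did not run together. More than 1 higher with calcitriol were 12, 2 and 32 genes for arrays 1, 2 and 3, and more than 1 lower were 1, 1 and 49. The SD over genes was 0.20, 0.16 and 0.23. Across 9852 genes, which share arrays and are not independent, Pearson's r was -0.04 between the differences of arrays 1 and 2, -0.15 between 1 and 3 and -0.13 between 2 and 3.

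Members of the vitamin D response list went both ways. Of 42 listed genes 21 were in the table and 13 lay above the filter, and 8 lay below it. Those 8 were S100g, Bglap, Klf4, Runx2, Stc2, Efnb2, Prkcq and Abcb1a. Of the 13, 0 passed over 18 arrays and 0 were without overlap, beside 2.52% higher and 2.17% lower among all genes. Their median difference was -0.11, against 0.01 for all genes tested. The median on arrays 1 and 2 was 0.14, against 0 for all genes. There 3 of 13 (23.1%) had both calcitriol arrays above both calcidiol arrays, namely Casr, Igfbp5 and Tnfrsf11b, and 3 (23.1%) had both below, namely Slc8a1, Cdkn1a and Stc1, beside 12.2% and 12.5% of all genes. Igfbp5 was 9.85 and 9.75 on the calcidiol arrays numbered 3, with and without glucose, and passed the filter through these. Casr passed it through its high arrays. The list was chosen with earlier results of these data known, so that its shares are a description and no test. On arrays 3 the median difference of the 13 was -0.22.

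Igfbp5 encodes a binding protein of insulin-like growth factors. It was 6.95, 6.63 and 6.54 with calcitriol and 6.01, 6.12 and 9.85 with calcidiol, a difference on arrays 1 and 2 of 0.72 (SE 0.19, adjusted p = 0.822 by limma). Tnfrsf11b encodes osteoprotegerin, the decoy receptor of the bone factor RANKL, and was 7.48, 6.75 and 6.73 against 6.43, 6.59 and 8.68, a difference of 0.61 (SE 0.24). Scnn1g, the gamma subunit of the epithelial sodium channel, was 7.42, 6.91 and 6.56 against 6.10, 6.96 and 9.22, a difference of 0.64 (SE 0.32). In Scnn1g the second arrays of the 2 groups were level, so that its difference came from the first arrays. Over 18 arrays the differences of the 3 genes were -0.62, -0.24 and -0.46, each with an interval that held 0. The calcium exporters Atp2b1 and Slc8a1 differed by -0.10 and -0.11 over 18 arrays. Calb1, which encodes calbindin-D28k, was 6.83, 6.55 and 6.80 against 7.21, 6.38 and 7.07, and its groups overlapped. Cdkn1a, the cell cycle inhibitor p21, was 8.49, 8.30 and 8.13 against 8.66, 8.67 and 7.69.

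The receptor and its partners stayed within the spread of the arrays. Vdr was 7.47, 7.53 and 7.51 with calcitriol, 7.37, 7.73 and 8.49 with calcidiol. The third calcidiol array was the highest, and the 3 calcitriol arrays were within 0.1 of each other. The difference was -0.36 (95% interval -0.83 to 0.11) over 18 arrays and -0.05 (-0.42 to 0.32) on arrays 1 and 2. The retinoid X receptor gene Rxra was 8.98, 9.17 and 9.44 against 8.55, 9.72 and 9.09, with the widest scatter in the calcidiol group, and Rxrb was 7.99, 8.15 and 8.15 against 7.85, 7.93 and 8.09. Of 26 listed receptor and coregulator genes 25 were in the table and 24 lay above the filter. Of these 0 passed and 0 were without overlap, beside 2.52% higher and 2.17% lower among all genes. The median difference was -0.03. Of 18 genes of vitamin D metabolism and transport 10 were in the table and 5 lay above the filter. Beside the same shares, 0 of these 5 were without overlap, and 0 of the 5 passed. They were Fdxr, the reductase that feeds electrons to mitochondrial P450 enzymes (0.21), Dhcr7, which consumes the precursor of vitamin D (0.14), Fdx1l (-0.07), Gc, the plasma vitamin D binding protein (0.03), and Pdia3 (-0.01). Cyp2r1, the hepatic 25-hydroxylase gene, lay below the filter at 5.97, 5.71 and 6.19 against 5.95, 6.19 and 5.97.

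Several glucose-responsive genes differed most between the arrays numbered 3. Txnip, Zfp36, Prok2, Hbegf and Lcat were picked as lowest on the array labelled calcidiol with glucose 3 against calcidiol arrays 1 and 2. Their large gaps on arrays 3 thus follow from that choice. Zfp36, whose protein destabilises mRNAs, was 9.43, 9.49 and 9.19 with calcitriol and 9.32, 9.57 and 6.71 with calcidiol. Prok2, a secreted peptide gene, was 12.10, 11.65 and 11.26 against 11.82, 11.77 and 9.02, and Hbegf, an EGF family growth factor gene, was 10.00, 9.65 and 9.41 against 10.21, 9.85 and 7.32. The calcidiol arrays 1 and 2 were level with the calcitriol arrays, and the array labelled calcidiol with glucose 3 lay more than 2 below them. Lcat, the cholesterol-esterifying enzyme of plasma, had the largest difference of all genes over 18 arrays, at 0.96 (SE 0.57, 95% interval -0.24 to 2.17), from 8.59, 8.22 and 7.80 against 8.17, 7.87 and 5.67, and was also higher with calcitriol on arrays 1 and 2, by 0.38 (0.07 to 0.69), without passing. Txnip differed by 0.73 (-0.44 to 1.90) over 18 arrays and by 0.07 (-0.10 to 0.24) on arrays 1 and 2. Nr4a1, an orphan nuclear receptor induced by calcium and cAMP, was 9.83, 10.17 and 9.63 against 9.49, 10.22 and 8.67, and Egr1 was 10.40, 10.47 and 10.44 against 10.03, 10.88 and 10.06, with gaps of 0.37, -0.41 and 0.38 on arrays 1, 2 and 3. Fos was left out by the filter on its mean over all 18 arrays, which included the controls at 5.57, 5.24 and 4.92. On the compared arrays it was 6.56, 7.17 and 7.33 against 6.40, 7.21 and 6.35. The array labelled glucose 3, which had no vitamin D, was also low in Txnip, at 10.33 against 12.29 and 12.22 on glucose arrays 1 and 2. The array labelled calcitriol 3 without glucose was high in Txnip, at 12.11 against 10.48 and 10.46, and it enters the 18-array values without glucose given below.

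**Figure D4:**
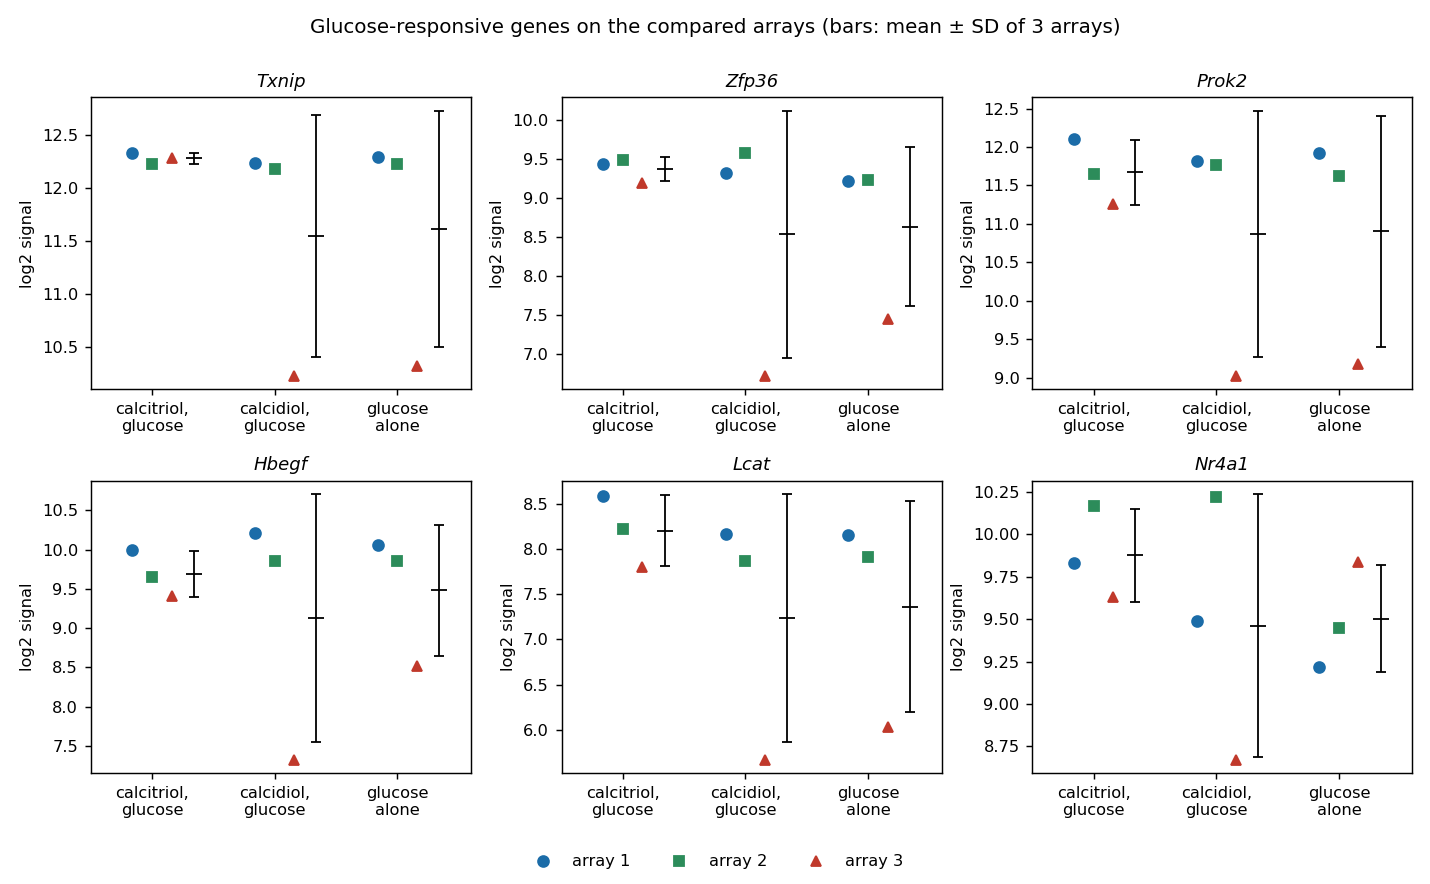
Log2 signal of 6 glucose-responsive genes on the arrays with calcitriol and glucose, calcidiol and glucose, and glucose alone; symbols give the array number, bars the mean and SD of 3 arrays, and the vertical scales differ. The array labelled calcidiol with glucose 3 is the lowest point in every panel, and that labelled glucose 3 is also low except for Nr4a1. All genes but Nr4a1 were picked for a low value on the array labelled calcidiol with glucose 3.

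The lists that respond to glucose had the largest medians over 18 arrays, at 0.21 for 12 carbohydrate response genes, 0.13 for 19 calcium and cAMP responsive genes and 0.11 for 20 immediate early genes. The same medians on arrays 1 and 2 were 0.03, -0.09 and 0.07, and on arrays 3 they were 0.54, 0.61 and 0.27. Without overlap, beside 2.52% higher and 2.17% lower among all genes, were 0, 1 and 1 of their members, which were Pim3, a survival kinase gene (9.11, 9.10 and 9.06 against 8.95, 8.93 and 8.82), and Arc. Called members were 0 in all 3 lists.

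The insulin genes were close between the forms. Ins1 differed by -0.01 (95% interval -0.12 to 0.10) and Ins2 by 0.02 (-0.07 to 0.12). Of 31 tested identity and hormone genes, a list whose member Ucn3 lay below the filter, 1 was without overlap (2.52% of all genes were higher in this way and 2.17% lower), Gipr, the receptor of the incretin GIP, at 10.82, 10.87 and 11.02 with calcitriol and 10.30, 10.81 and 10.73 with calcidiol, a difference of 0.29 (0.00 to 0.57). The median of the 31 was 0.03, and that of 44 secretion and ion channel genes was 0.02 with 0 without overlap. Gcg, the glucagon gene, which INS1E cells also express, was 11.61, 11.54 and 11.38 against 12.10, 12.16 and 10.20. The difference was -0.55 on arrays 1 and 2, and on arrays 3 the calcitriol array was the higher. Krt7, a keratin gene of ducts, was 10.53, 9.94 and 9.71 against 9.51, 9.49 and 10.88. The part of Gcg and Krt7 in the other results was not tested.

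The medians of the other lists over 18 arrays were within 0.1 of 0. Counts without overlap in these lists stand beside 2.52% higher and 2.17% lower among all genes. Of 39 adhesion and neurite genes 0 were without overlap, with a median of -0.05 in both sets of arrays. Of the 39, 4 (10.3%) had both calcitriol arrays above both calcidiol arrays on arrays 1 and 2 and 7 (17.9%) had both below, beside 12.2% and 12.5% of all genes. Both below were also 25.6% of the cell cycle, 27.3% of the ribosomal protein and 23.2% of the oxidative phosphorylation genes, and both above were 4.65%, 10.6% and 12.5%. Medians were 0.05 for 30 unfolded protein response genes and for 28 amino acid response genes, 0.06 for 21 glycolysis genes, 0.02 for 29 sterol and fatty acid synthesis genes and 0.01 for 56 oxidative phosphorylation genes. Of the 56 oxidative phosphorylation genes 3 were lower without overlap, among them the complex I gene Ndufs5, at 9.91, 9.84 and 10.00 against 10.07, 10.12 and 10.08. Of 19 oxidative stress genes 2 were lower without overlap, among them catalase, Cat, at 9.79, 9.73 and 9.80 against 9.99, 9.94 and 9.83. Of 19 p53 and apoptosis genes 2 were higher, Bax, a pore-forming death protein of mitochondria (8.72, 8.49 and 8.69 against 8.46, 8.37 and 8.35, a difference of 0.24 with an interval of 0.08 to 0.40), and Gadd45g (0.23). Shmt2, the serine hydroxymethyltransferase of mitochondria, was the 1 amino acid response gene without overlap, at 10.04, 9.96 and 10.01 against 9.92, 9.84 and 9.86. Of 43 cell cycle genes 2 and of 66 ribosomal protein genes 3 were lower without overlap, with medians of -0.04 and -0.01. The clock genes (16) and inflammatory genes (7) had 0 without overlap, and no list had a called member over 18 arrays.

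**Figure D5:**
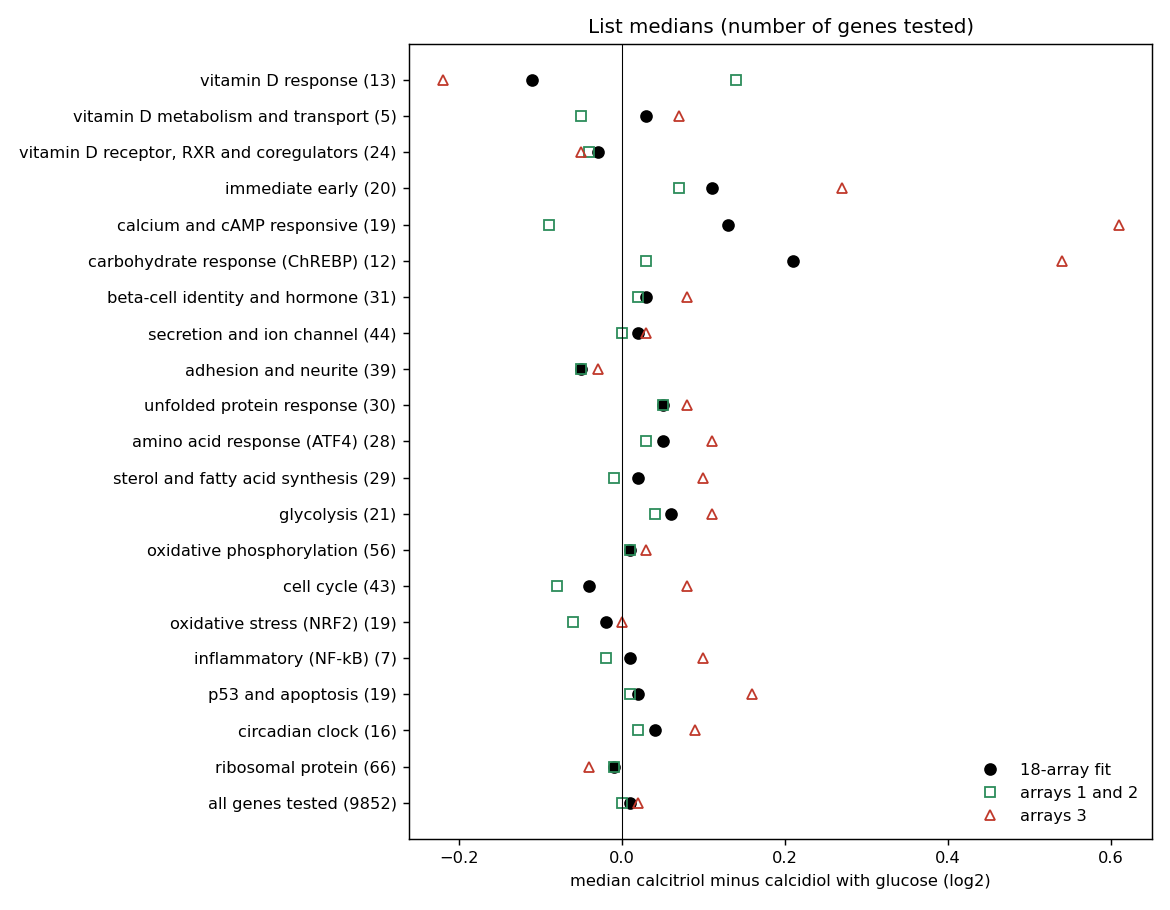
Median difference, calcitriol minus calcidiol with glucose on a log2 scale, for each gene list with the number of genes tested, in the fit of 18 arrays, in that of arrays 1 and 2, and on arrays 3. The vitamin D response list is at -0.11, 0.14 and -0.22, and the carbohydrate response list at 0.21, 0.03 and 0.54.

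The same 2 forms without glucose gave a like picture for the called genes. Casr was 7.36, 7.27 and 6.49 with calcitriol and 6.20, 6.30 and 9.52 with calcidiol, a difference on arrays 1 and 2 of 1.06 (adjusted p = 0.0026 by limma). It was the 1 gene called there (0.0102%), and 0 were called over 18 arrays, with 96 at an unadjusted p under 0.05. Adam23 differed by 1.06 on those arrays (adjusted p = 0.0526 by limma), and was called there as well, beside Casr, with the replicate number as a block. With no filter Ucn3 differed by 1.46 (adjusted p = 0.00279) and S100g by 0.82 (adjusted p = 0.036). The test of whether the forms differed by more with glucose than without called 0 genes over 18 arrays, with 97 at an unadjusted p under 0.05, and 0 on arrays 1 and 2, with 247. On arrays 1 and 2 that difference of differences was -0.19 (95% interval -0.48 to 0.10) for Casr and 0.01 (-0.42 to 0.44) for Adam23, and for Ppargc1a it was -0.63 (-1.14 to -0.11, adjusted p = 0.998). Among the genes named above the interval also missed 0, before adjustment over all genes, for Arc at 0.72 (0.32 to 1.12) and Acadl at -0.43 (-0.71 to -0.15), among others. The adjusted p of Arc and of Acadl was 0.998 by limma. Arc and Acadl were named for their difference with glucose, which is a part of this value and favours such an interval.

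Each form was also set against glucose alone. These comparisons share the glucose arrays, so that their values are placed side by side without a test of their likeness. On arrays 1 and 2, calcitriol differed from none by 1.02 for Casr (adjusted p = 0.00396 by limma) and 1.17 for Adam23 (adjusted p = 0.0217), and these were the 2 genes called (0.0203%). Calcidiol differed from none by 0.15 and 0.10 for the same genes, and 0 genes were called, with 353 at an unadjusted p under 0.05. With no filter, calcitriol differed from none by 1.75 for Ucn3 and 1.43 for S100g, and calcidiol by 0.12 and 0.23. Both forms were used at 10 nM. Over 18 arrays calcidiol differed from none by 1.17 for Casr and calcitriol by 0.72, with the third arrays as labelled.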

How the data were processed

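Total RNA of 18 INS1E samples was measured on Affymetrix Rat Gene 1.0 ST arrays. The values are log2 signals deposited by the authors, and Partek and RMA are named in the submitters' processing notes, with no versions. Array medians were 7.52 to 7.63. Precision is limited by having 3 arrays per group. The highest-mean probe set stood for each of 13136 symbols, and the lowest 25% by mean signal (below 6.38) were left out, which left 9852. Limma 3.58.1 in R 4.3.3 fitted 1 model of 6 groups with empirical Bayes moderation, Benjamini-Hochberg adjustment and a threshold of 0.05, and the code was tested on simulated data. Named were the 10 higher and 10 lower genes with the smallest p and the largest differences without overlap. Higher and lower genes with the smallest p on arrays 1 and 2 were also named. Further genes were those highest or lowest on the array labelled calcidiol with glucose 3 against its group's arrays 1 and 2. Members of gene lists and a fixed set of genes were added. The members and lists were chosen with earlier results of these data known. Same-numbered arrays deviated together, with correlations of 0.322, 0.248 and 0.334 over genes, which comes from the values and not from the labels. Without overlap means all 3 arrays of one group above all 3 of the other. The alternatives were array weights, median centring, other filters, the replicate block, other probe set rules and leaving out arrays.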

Additional observations from a re-analysis of the deposited data

How the results depend on the processing

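Calcitriol against calcidiol with glucose gave 0 calls in the limma fit of 18 arrays, with and without the replicate block, 2 with arrays 1 and 2 alone, 3 there with the replicate block and 4 there with no filter. Leaving out single arrays or numbers gave 0 to 2. Without glucose the counts on arrays 1 and 2 were 1, 2 with the replicate block and 4 with no filter, and 0 to 1 with arrays or numbers left out. The difference of differences gave 0 in every setting run. Having 3 arrays per group limits all of these, and the cause of each change was not tested beyond leaving out arrays.

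Of 76 named genes, 43 kept their sign in every setting. With only arrays 1 and 2 of the compared groups (the 12-array fits with and without the replicate block or the filter, the 16-array fit and the 4 arrays alone), the sign turned for Casr to 0.87, Nrcam 0.67, Trim9 0.59, Cacnb1 0.60, Igfbp5 0.72, Scnn1g 0.64, Lppr1 1.22, Gab1 0.56, Tnfrsf11b 0.61, Hbegf -0.20, Rxra -0.06, Egr1 -0.02, Gcg -0.55, Stc1 -0.19 and Gc -0.08. Array weights turned Nrcam to 0.11, Trim9 0.05, Cacnb1 0.07, Lppr1 0.55, Tnfrsf11b 0.11, Rxra -0.21, Egr1 -0.12, Gcg -0.19, Stc1 -0.10 and Calb1 0.08. Median centring put Adam23 at 0.00 on the other side of 0, and the mean of probe sets put Pdia3 at 0.03.

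Leaving out single arrays or a number spanned 0 for the following genes. The higher genes of arrays 1 and 2 ran from -1.12 to 0.87 for Casr, -0.62 to 1.07 for Adam23, -0.54 to 0.67 for Nrcam, -0.59 to 0.59 for Trim9, -0.42 to 0.60 for Cacnb1, -0.88 to 1.22 for Lppr1 and -0.89 to 0.56 for Gab1. Vitamin D genes ran from -1.40 to 0.72 for Igfbp5, -1.35 to 0.64 for Scnn1g, -0.89 to 0.61 for Tnfrsf11b, -0.36 to 0.14 for Cdkn1a, -0.19 to 0.20 for Stc1, -0.22 to 0.00 for Slc8a1, -0.41 to 0.00 for Calb1, -0.21 to 0.39 for Rxra, -0.08 to 0.09 for Gc and -0.05 to 0.02 for Pdia3. The lower genes ran from -0.67 to 0.05 for Fyb, -0.55 to 0.13 for Fam46a, -0.46 to 0.01 for Lrrn3, -0.49 to 0.03 for Oxtr, -0.43 to 0.02 for Ugt8, -0.46 to 0.05 for Cxadrl1, -0.40 to 0.13 for Zcchc16 and -0.85 to 0.07 for Ppargc1a. Glucose genes and markers ran from -0.13 to 1.27 for Prok2, -0.07 to 1.36 for Zfp36, -0.34 to 1.10 for Hbegf, -0.03 to 0.39 for Egr1, -0.02 to 0.01 for Ins1, 0.00 to 0.05 for Ins2, -0.62 to 0.36 for Gcg and -0.36 to 0.74 for Krt7.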
